A study of Homo sapiens with 9 samples.

Results

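Histone genes were taken from the deposited gene table by symbol, and 79 of its 61806 genes matched. They comprised 66 replication-dependent genes (H1-1 to H1-6 and the numbered H2AC, H2BC, H3C and H4C genes) and 13 replacement or otherwise replication-independent genes (including H1-7, H1-8, H1-10, H2AJ, H2AX, H2AZ1, H2AZ2, H3-3A, H3-3B, H3-5, MACROH2A1 and MACROH2A2). The match used symbols alone, but the set was chosen with earlier results of these data known. Of the replication-dependent genes, 55 lie on chromosome 6 and 11 on chromosome 1. The genes were measured in 9 mRNA-seq libraries of 786-O, an established line of clear cell renal carcinoma cells, with 3 libraries for each of 3 groups.

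The groups were TRIM28 knockdown, PARP1 knockdown and a control. TRIM28 is a corepressor that works with zinc-finger proteins on chromatin, and PARP1 is the main enzyme that makes poly(ADP-ribose) at broken DNA. The labels give the reagents as siRNA in one field and as shRNA in another, and describe the control both as negative-control treated and as parental, so the reagent and the state of the controls are uncertain. All 9 libraries carry the same batch label. Nothing in the labels says that replicates came from separate cultures, and the p-values therefore cover only variation among these libraries, which may be technical.

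Replication-dependent histone genes supply the core and linker histones that package new DNA in S phase. Their messages are known to end in a conserved stem-loop, bound by the protein SLBP, rather than in a poly(A) tail. Replacement genes such as H3-3B and H2AZ1 are ordinary polyadenylated genes that are used through the cell cycle, while H2AX is known to be made in both forms. The libraries were made from RNA selected by oligo(dT), so replication-dependent messages were measured only as far as that selection captured them.

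The stem-loop is shown because it marks the messages that the selection would be least able to hold. The histone stem-loop, 16 bases with arms of 6 pairing bases, was searched on the sense strand of the GENCODE 29 transcript models (GRCh38), and 75 of the 79 genes had a model. It was present in the models of 25 replication-dependent genes and of H2AX, and in 83 genes (0.141%) of 58676 with a model, so histone genes were 31.3% of the genes holding it. A gene without a match is one whose models do not hold these letters, and nothing more is read from it. In 18 of the 26 genes a model ran more than 300 bases past the stem-loop. The most frequent form of the loop, in 13 genes, is that of H2BC21, H2AC8 and H2BC9, and the H4 genes with a match had the form of H4C5 or that of H4C9, which differ in the loop. Capitals mark the 16 bases of the stem-loop, and the coordinates are those of the capitals on GRCh38.
H2BC21, chr1:149886188-149886203, minus strand: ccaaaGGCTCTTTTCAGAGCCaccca
H2AC8, chr6:26217417-26217432, plus strand: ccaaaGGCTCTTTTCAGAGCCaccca
H2BC9, chr6:26252055-26252070, plus strand: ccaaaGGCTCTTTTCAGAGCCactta
H2BC5, chr6:26158587-26158602, plus strand: ccaaaGGCTCTTTTAAGAGCCacgca
H4C5, chr6:26205001-26205016, plus strand: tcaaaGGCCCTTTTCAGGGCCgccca
H4C9, chr6:27139654-27139669, plus strand: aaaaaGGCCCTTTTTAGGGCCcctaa
H2AX, chr11:119094898-119094913, minus strand: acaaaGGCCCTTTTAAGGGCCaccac

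Library totals ran from 11963110 to 20224374 counts. The targets were low in their own groups: TRIM28 averaged 12.1 ± 1.7 scaled FPKM in TRIM28 knockdown libraries and 80.4 ± 7.66 in controls, and PARP1 averaged 0.3 ± 0.0649 in PARP1 knockdown libraries and 9.63 ± 1.29 in controls (SD, n = 3 each). PARP1 was also lower in TRIM28 knockdown libraries, at 5.10 ± 0.0302 scaled FPKM. Scaled FPKM are the usual reads per length of summed exons and per library size, after the trimmed mean of M-values (TMM) scaling of library sizes. The groups differed in how counts depended on gene length: the slope of log2 counts, relative to the gene's mean, on log2 length was -0.024 to -0.001 in TRIM28 knockdown libraries, -0.167 to -0.097 in PARP1 knockdown libraries and 0.073 to 0.203 in controls. Short genes therefore stood higher in PARP1 knockdown libraries than long genes did, and the tested replication-dependent genes have a median length of 495 bases, against 3332 bases for the tested replacement genes. The 10 markers of renal carcinoma epithelium summed to 1437 to 1529 scaled FPKM in TRIM28 knockdown libraries, 1114 to 1449 in PARP1 knockdown libraries and 1286 to 1393 in controls, while 5 leukocyte, 4 endothelial and 5 fibroblast markers each summed to at most 1.10 in any library, with 3 of the leukocyte markers at 0 in all 9. The epithelial sum was mostly VIM, at 1012 ± 35.4 in controls, with KRT18 at 142 and KRT8 at 94.0. In the same list CA9, LOX and ITGB8 averaged only 0.752, 0.190 and 0.148 in controls. In bulk RNA, fewer cells of a kind (such as cells in S phase) and less RNA per cell cannot be told apart.

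Of the 79 genes, 70 had at least 1 read and 56 passed the filter on low counts, 47 replication-dependent and 9 replacement. The 9 genes with no read were H1-1, H1-6, H2AC1, H2BC1, H4C6, H4C7, H4C13 and, among the replacement class, the germline linkers H1-7 and H1-8. The 14 genes with reads that were not tested never exceeded 13 counts in a library. They were H2AC18, H2AC19, H2BC3, H2BC6, H2BC14, H3C1, H3C4, H3C6, H3C11, H3C14, H3C15, H4C15, H3-5 and MACROH2A2. H3-5, an H3.3-like gene known from testis, had 3, 1 and 2 counts in TRIM28 knockdown libraries, 2, 2 and 4 in PARP1 knockdown libraries and 1 in each control. MACROH2A2, a macrohistone gene, had 3, 0 and 4 counts in TRIM28 knockdown libraries, 4, 1 and 0 in PARP1 knockdown libraries and 2, 1 and 6 in controls. The untested genes enter no test here, but those with reads are part of the summed levels of the classes and families.

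In control cells the replacement class carried most of the measured histone message. H2AZ1, which encodes the transcription-associated variant H2A.Z, was the highest histone gene at 354 ± 25.7 scaled FPKM, followed by H3-3B, which encodes H3.3, at 82.9 ± 2.95. The linker gene H1-2 was the highest replication-dependent gene at 73.0 ± 1.14, and the linker H1-10 and H2BC12 followed at 47.1 ± 8.92 and 46.1 ± 5.32, which do not differ beyond their spread. Next came H4C5 at 31.4 ± 3.88 and H1-4 at 27.6 ± 3.33, in the range of H2AZ2 at 27.0 ± 2.19 and H2AX at 26.4 ± 2.33. H1-5 (19.5 ± 1.62), H3-3A (18.8 ± 2.05), H4C3 (18.7 ± 1.27), MACROH2A1 (17.2 ± 0.786) and H2AJ (16.3 ± 3.31) lay within their spreads of their neighbours (all scaled FPKM, SD, n = 3). Only 12 of the 47 tested replication-dependent genes averaged over 10 scaled FPKM in controls. The lowest was H4C14 at 0.221 ± 0.101.

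**Figure D1:**
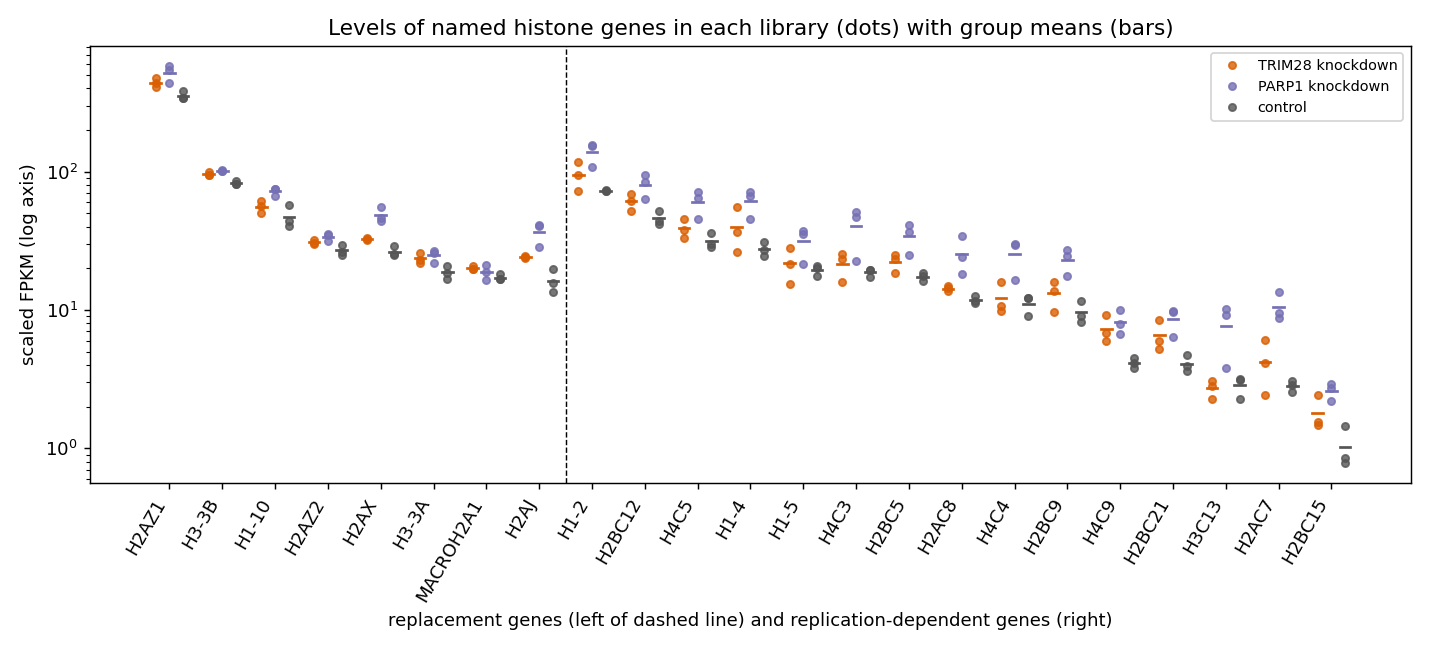
Scaled FPKM (log axis) of 8 replacement genes and the 15 tested replication-dependent genes described by name, with a dot for each library, a bar for each group mean, and TRIM28 knockdown, PARP1 knockdown and control from left to right within a gene. H2AZ1 is highest in every group, and the PARP1 knockdown dots of H2AC7, between 8.70 and 13.4, stand above all the others of that gene.

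Replication-dependent genes were broadly higher in PARP1 knockdown than in control libraries: 36 of the 47 tested rose and 0 fell, 46 had a log2 fold change above 0, and the median was 0.95, against -0.07 over all 13562 genes tested. Over all tested genes 27.1% were called higher and 32.2% lower (59.3% in either direction) in this comparison, by edgeR's quasi-likelihood test at a Benjamini-Hochberg adjusted p of 0.05. All 3 PARP1 knockdown libraries lay above all 3 controls for 33 of the 47 genes, against 30.5% of all tested genes. Summed over the 66 genes, the replication-dependent class had 634.5, 982 and 1013 scaled FPKM in PARP1 knockdown libraries, against 441, 431 and 480 in controls, or 877 ± 210 against 451 ± 25.6 (SD, n = 3 each), a ratio of 1.95.

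That summed level rests on scaling as well as on counts. As a share of all counts, the class held 0.0498 ± 0.00837% in PARP1 knockdown libraries and 0.0324 ± 0.000868% in controls, a ratio of 1.53. Scaled by library totals alone, the median over all genes was -0.39 and that of the replication-dependent genes 0.62, so the gap between them was 1.01 on that scale and 1.02 with TMM factors. The first PARP1 knockdown library stood apart from the other 2: it was the lowest of the group for 44 of the 47 replication-dependent genes (93.6%), against 39.7% of all tested genes. Without it 43 genes rose and the median was 1.17, and without the third library 28 rose and the median was 0.86.

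**Figure D2:**
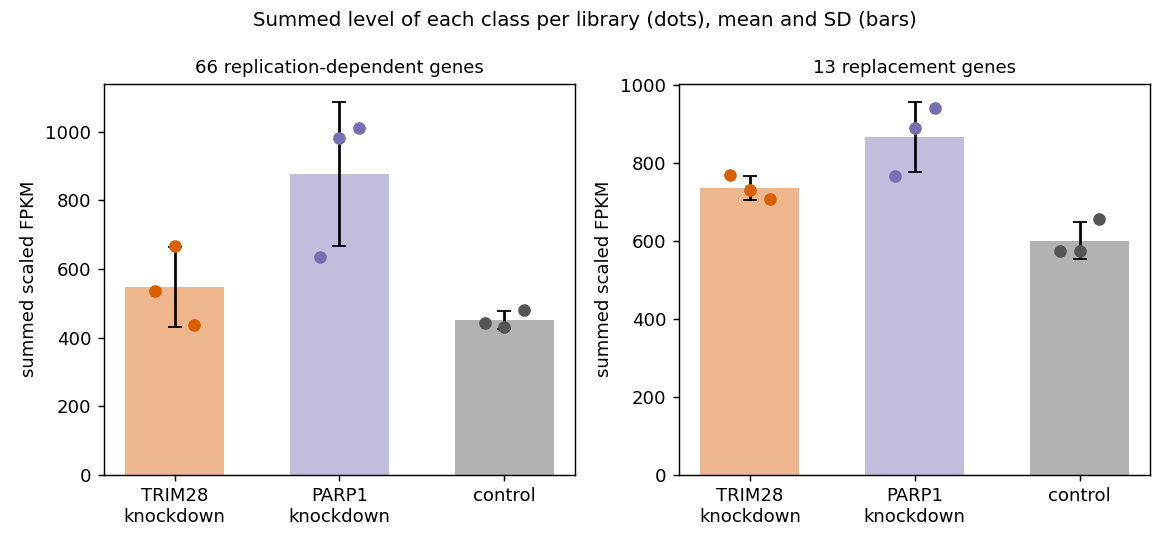
Summed scaled FPKM of the 66 replication-dependent genes (left panel) and the 13 replacement genes (right panel), with a dot for each library and bars for mean and SD in TRIM28 knockdown, PARP1 knockdown and control. The first PARP1 knockdown library, at 634.5 for the replication-dependent class, lies below the other 2 of its group and above the 3 controls.

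Each family of the nucleosome contributed. All 10 tested H4 genes and all 4 tested linker H1 genes rose in PARP1 knockdown libraries, with median log2 fold changes of 1.14 and 0.82. H2B genes rose in 11 of 13 cases (median 1.08), H2A genes in 8 of 13 (median 0.78) and H3 genes in 3 of 7 (median 0.88). The 4 H3 genes that did not pass, H3C3, H3C8, H3C10 and H3C12, averaged between 1.25 and 4.12 scaled FPKM in controls. By place, 18 of 23 genes of the large chromosome 6 cluster, 13 of 18 of the smaller one further along that chromosome and 5 of 6 on chromosome 1 rose, with medians of 0.93, 0.87 and 1.08. The H2A and H1 medians were below 0, at -0.32 and -0.04, and the H3 median was 0.05, once trends over length and GC content were removed, whereas the H2B and H4 medians stayed above 0 at 0.56 and 0.52. H3C2 and H3C3 have no GC value and enter the H3 median with the length trend alone removed.

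Among abundant genes, the linker H1-2 had 108, 157 and 153 scaled FPKM in PARP1 knockdown libraries, against 72.1, 72.7 and 74.3 in controls (log2 fold change 0.93 ± 0.16 SE, adjusted p = 2.14e-05). H1-4, another linker gene, had 45.8, 66.9 and 71.0 against 27.1, 24.6 and 31.1 (1.15 ± 0.20, adjusted p = 2.85e-05). In both, every PARP1 knockdown library lay above every control, and the first was the lowest of its group. H2BC12 had 63.0, 84.0 and 95.1 scaled FPKM in PARP1 knockdown libraries, against 43.9, 42.2 and 52.1 in controls (0.80 ± 0.16). The linker H1-5 had 21.4, 37.1 and 35.5, against 17.7, 20.8 and 20.1 (0.68 ± 0.20), so its lowest knockdown library was only just above the highest control. With length and GC trends removed none of these 4 genes was called higher: H1-2 was -0.04, H1-4 was 0.05, H1-5 was -0.39, and H2BC12 was called lower (-0.35, adjusted p = 0.0175).

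The H4 genes carry the same protein from many copies. H4C5 had 45.2, 70.8 and 64.1 scaled FPKM in PARP1 knockdown libraries, against 28.5, 29.9 and 35.8 in controls (0.93 ± 0.18). H4C3 had 22.6, 47.4 and 51.3, against 19.5, 17.2 and 19.3 (1.10 ± 0.24). The first library of H4C3 was close to the controls, while the other 2 were far above them. H4C4 had 16.4, 30.2 and 29.5, against 12.2, 9.01 and 12.1 (1.18 ± 0.25), with no overlap between the groups. H4C5 lost its call with length alone removed (0.34) but was called higher with both trends removed. H4C4 lost its call with both trends removed (0.19), and H4C3 was called higher under either removal.

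H2AC7 showed the largest fold change of the 47, 3.68-fold: it had 8.70, 9.45 and 13.4 scaled FPKM in PARP1 knockdown libraries, against 2.55, 2.85 and 3.07 in controls (1.88 ± 0.32, adjusted p = 1.54e-05). Behind these levels are 67, 57 and 69 reads in PARP1 knockdown libraries and 27, 30 and 34 in controls. H2AC7 overlaps a gene without a symbol on the same strand and shares 97.8% of its 75-base windows with another gene in GENCODE 29, so how its reads were assigned is uncertain. H2AC8, which shares none, had 18.2, 34.0 and 24.3 scaled FPKM, against 11.6, 11.3 and 12.6 (1.10 ± 0.21). With length and GC trends removed H2AC7 was 0.68 and still called, and H2AC8 was 0.21 and was not. Of the 56 tested histone genes, 14 shared at least 20% of such windows with another gene and 3 overlapped a tested gene on their own strand. Among the 32 replication-dependent genes with neither, 25 rose, with a median of 0.94.

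Several H2B genes kept their calls under every trend removal. H2BC21, whose summed exons span 2224 bases, had 6.40, 9.62 and 9.79 scaled FPKM in PARP1 knockdown libraries, against 3.61, 4.72 and 3.92 in controls (1.07 ± 0.20, adjusted p = 6.95e-05). H2BC15, with 4265 bases, had 2.21, 2.94 and 2.71, against 0.857, 0.783 and 1.45 (1.34 ± 0.24, adjusted p = 4.46e-05). Neither gene's groups overlapped. H2BC5, with 861 bases, had 24.9, 41.5 and 36.8, against 18.4, 16.1 and 17.6 (0.98 ± 0.18), and H2BC9, with 462, had 17.5, 24.7 and 27.2, against 8.12, 9.01 and 11.7 (1.26 ± 0.24). These 4 genes remained called with the length trend removed, and again with length and GC trends removed, where their log2 fold changes were 0.96 for H2BC21, 1.76 for H2BC15, 0.56 for H2BC5 and 1.05 for H2BC9.

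**Figure D3:**
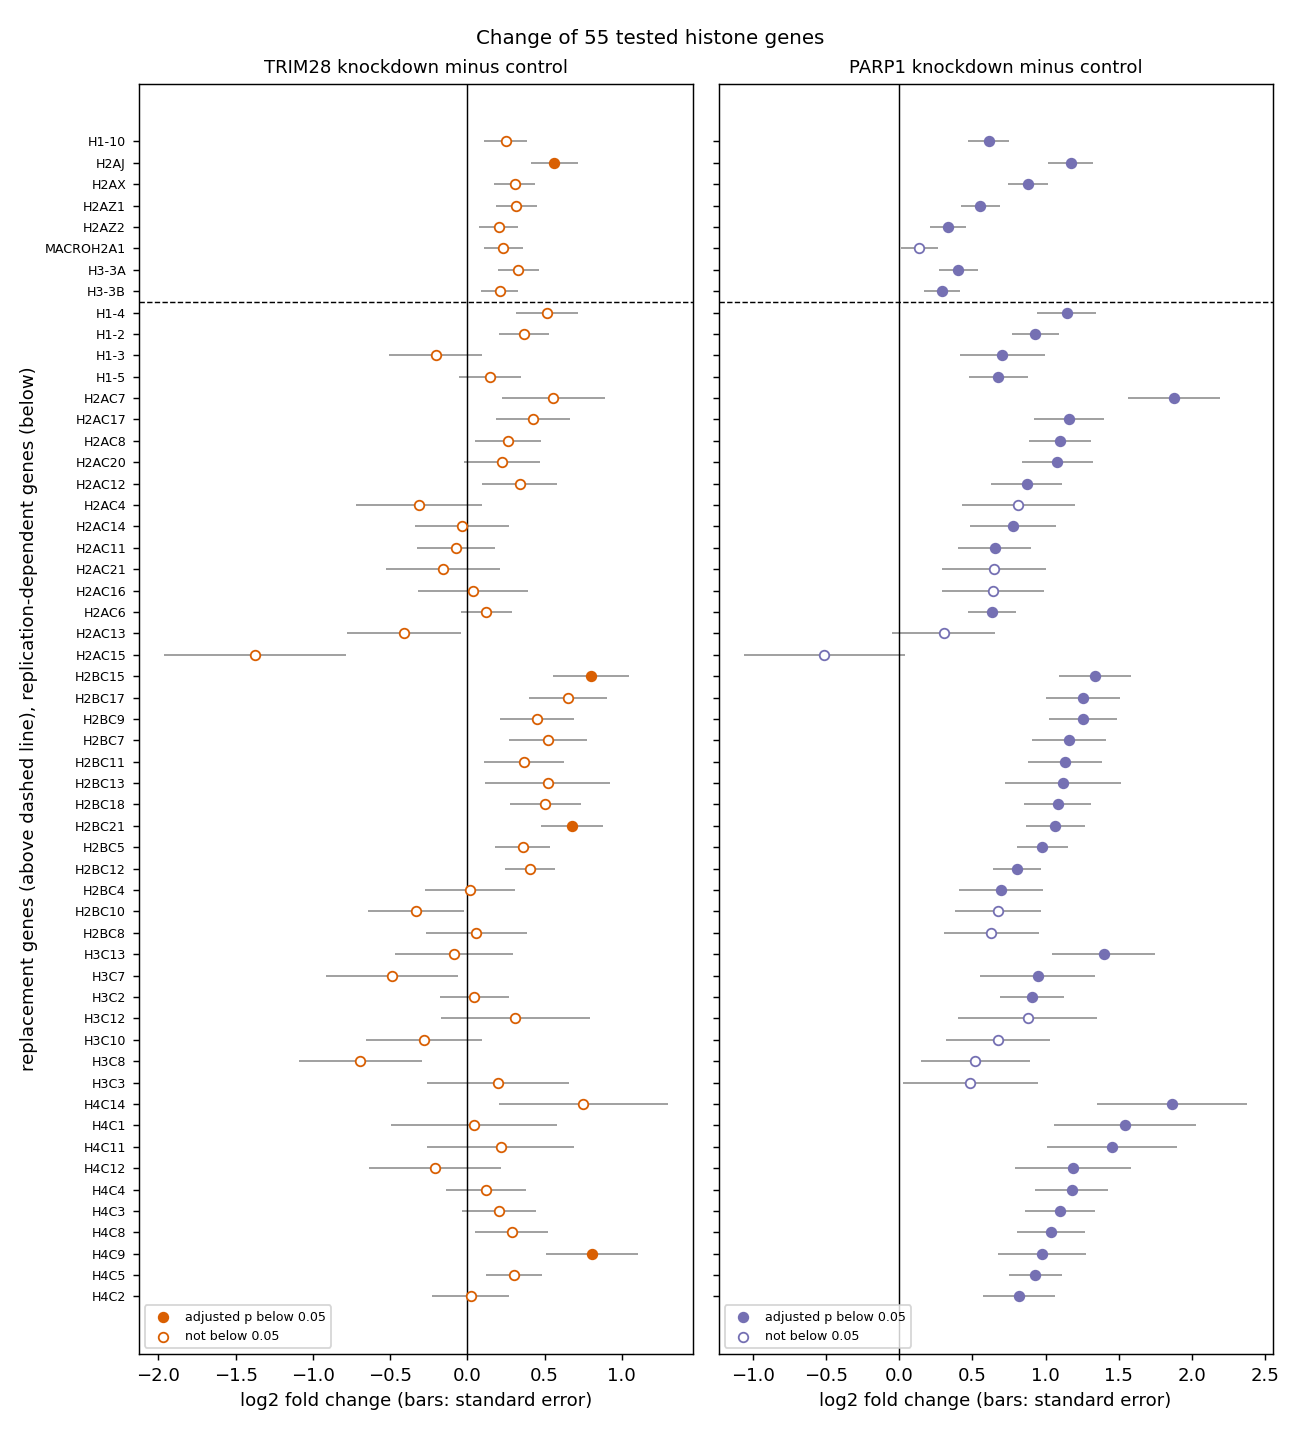
Log2 fold change with its standard error for 55 tested histone genes, TRIM28 knockdown minus control on the left and PARP1 knockdown minus control on the right, with filled symbols for an adjusted p below 0.05. On the right 46 of the 47 replication-dependent genes lie above 0 and H2AC15, at -0.51, lies below it; on the left few symbols are filled.

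Gene length went with the change outside the histone set. Among the 47 replication-dependent genes the Spearman correlation of log2 fold change with length was only -0.16. Outside the histone set, 285 tested genes no longer than 600 bases had a median log2 fold change of 0.59 between PARP1 knockdown and control, and 38.6% of them were called higher, against 26.7% of the 13221 longer ones. Of the replication-dependent genes, 23 of 32 no longer than 600 bases and 13 of 15 longer ones rose, with medians of 0.94 and 0.98. After each library's trend over length was removed, 18 of the 36 genes remained called higher and none was called lower, and the median was 0.37. The 18 are 38.3% of the 47 genes, and over all genes 28.6% were then called higher. With the trends over length and GC content removed, 14 rose, 2 fell and the median was 0.19, where 24% of all genes were called higher, and 10 of the 36 genes had a negative log2 fold change. Of the 15 genes longer than 600 bases, 9 rose with the length trend removed and 8 with both removed (median 0.55). What the trends stem from was not tested.

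**Figure D4:**
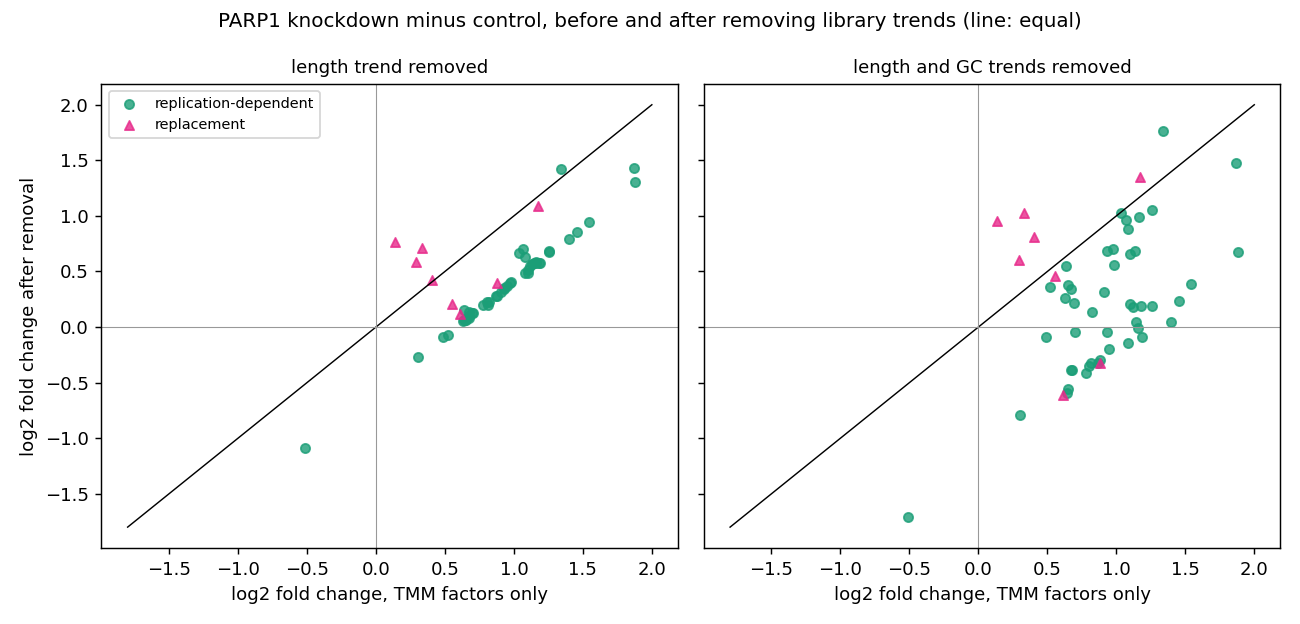
Log2 fold change of PARP1 knockdown minus control for the same 55 tested histone genes, with TMM factors only (horizontal axis) against the value with the length trend removed (left panel) or with length and GC trends removed (right panel); the line marks equal values. In the left panel every tested replication-dependent gene but H2BC15 lies below the line.

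Most replacement genes were also higher in PARP1 knockdown libraries. Of the 9 tested, 7 rose and 0 fell, where 27.1% of all tested genes were called higher and 32.2% lower. Their median log2 fold change was 0.40, against -0.07 over all genes. The median of the replication-dependent genes was 0.95, and the difference between the classes was not tested. The order of the classes was not kept when trends were removed. With the length trend removed the medians were 0.37 for replication-dependent and 0.42 for replacement genes. With length and GC trends removed they were 0.19 and 0.60. Summed over all 13 genes of the class, the level was 767, 890 and 942.5 scaled FPKM in PARP1 knockdown libraries, against 574, 573 and 656 in controls, a ratio of 1.44. Scaled by library totals alone, 2 of the 9 rose and 1 fell, and the median was 0.07, against -0.39 over all genes. With TMM factors and without the second control 4 rose.

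H2AJ, a replication-independent H2A gene known to accumulate in senescent cells, rose most: it had 28.7, 41.3 and 40.6 scaled FPKM in PARP1 knockdown libraries, against 13.4, 15.7 and 19.9 in controls (log2 fold change 1.17 ± 0.15, adjusted p = 6.39e-07). H2AX, whose phosphorylated form marks broken DNA, had 46.6, 44.0 and 55.6, against 25.3, 24.9 and 29.1 (0.88 ± 0.13, adjusted p = 4.37e-06). In both genes the groups were well apart. With length and GC trends removed H2AJ was 1.35, whereas H2AX was called lower (-0.32, adjusted p = 0.0265). H2AX is the replacement gene with the stem-loop, and the median of the other 8 was 0.37.

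The H2A.Z genes were higher in PARP1 knockdown libraries. H2AZ1 had 437, 539 and 583 scaled FPKM there, against 339, 340 and 384 in controls (0.55 ± 0.13, adjusted p = 0.000862), and H2AZ2 had 31.6, 34.8 and 35.5, against 25.1, 26.4 and 29.4 (0.33 ± 0.12, adjusted p = 0.0238). No library of either gene overlapped the other group. The H2AZ1 call was lost with length alone removed (0.20) and with library totals (0.22), and was kept with length and GC trends removed (0.46). H2AZ2 was 0.71 with length removed, 1.03 with both trends removed and 0.01 with library totals, and its call was lost without the first control (adjusted p = 0.0714), the second control (0.0645) or the second PARP1 knockdown library (0.0741). The linker H1-10 had 66.5, 75.1 and 74.4, against 43.7, 40.4 and 57.2 (0.61 ± 0.14), and with length and GC trends removed it was called lower (-0.61, adjusted p = 0.000421).

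Both H3.3 genes rose in PARP1 knockdown libraries. H3-3A had 22.0, 25.8 and 26.7 scaled FPKM there, against 18.6, 16.8 and 20.9 in controls (0.40 ± 0.13, adjusted p = 0.0115), and H3-3B had 102, 100.5 and 102, against 80.8, 81.6 and 86.3 (0.29 ± 0.12, adjusted p = 0.0390). Neither was called when scaled by library totals, at 0.07 for H3-3A and -0.03 for H3-3B, while both were called and larger with length and GC trends removed, at 0.81 and 0.60. The H3-3A call was lost without the second control (adjusted p = 0.0638), and the H3-3B call without the first control, the second control, the first TRIM28 knockdown library, or the second or the third PARP1 knockdown library (adjusted p between 0.0507 and 0.0902). MACROH2A1, which encodes macroH2A1, had 21.1, 18.9 and 16.6, against 16.8, 16.6 and 18.1 (0.14 ± 0.13, adjusted p = 0.367), with groups that overlapped. It was -0.18 with library totals, and it was called higher with length alone removed (0.76) and with both trends removed (0.95). Within H3, replication-dependent genes gave 30.9 ± 6.38% of the summed scaled FPKM in PARP1 knockdown libraries and 23.2 ± 2.01% in controls. Within H2A the same share was 19.2 ± 2.16% and 15.9 ± 0.257%, and within H1 it was 74.1 ± 3.79% and 68.2 ± 2.36%. The groups overlapped for H3 and for H1, where the first PARP1 knockdown library lay below at least 1 control, and not for H2A. These shares rest on TMM scaling alone and set short genes against longer ones. They were not computed with the trends over length and GC content removed.

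TRIM28 knockdown changed few histone genes. Of the 47 replication-dependent genes 3 rose and 0 fell against control, where 10.3% of all tested genes were called higher and 17.5% lower. At an unadjusted p under 0.05, 9 of the 47 passed in either direction, against 40.2% of all genes, and DESeq2 called 6 higher and 0 lower, against 13.7% and 16.1% of all genes. The median log2 fold change was 0.20, against -0.02 over all genes, and 34 of the 47 lay above 0. All TRIM28 knockdown libraries lay above all controls for 6 genes and below them for 1, against 21.2% and 25.3% of all tested genes. The summed level was 536, 668 and 436 scaled FPKM in TRIM28 knockdown libraries, against 441, 431 and 480 in controls, so the groups overlapped.

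The 3 genes that rose with TRIM28 knockdown also encode core histones. H2BC21 had 5.96, 8.53 and 5.20 scaled FPKM in TRIM28 knockdown libraries, against 3.61, 4.72 and 3.92 in controls (log2 fold change 0.68 ± 0.20, adjusted p = 0.0149). H2BC15 had 1.47, 2.41 and 1.55, against 0.857, 0.783 and 1.45 (0.80 ± 0.25, adjusted p = 0.0171), and its lowest knockdown library was just above the highest control. H4C9 had 5.96, 9.23 and 6.83, against 4.12, 4.51 and 3.83 (0.81 ± 0.30, adjusted p = 0.0437). In all 3 genes the second library was the highest, and it was the highest of its group for 37 of the 47 genes (78.7%), against 31.8% of all tested genes. None rose without that library or without the first control. The count was 1 without the second control, 6 without the third, 8 without the third TRIM28 knockdown library, and 7 without the first or the third PARP1 knockdown library. With the length trend removed the median was -0.12, against 0.05 over all genes. H2BC15 alone rose and H2AC15 alone fell (-1.70), where 11.5% of all genes were called higher and 12.3% lower. With length and GC trends removed the median was -0.22, against 0.02 over all genes. H2BC15 and H2BC21 were then higher and 2 other genes lower, where 10.8% of all genes were called higher and 10.6% lower. With library totals none of the 47 was called.

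Of the replacement genes, H2AJ rose with TRIM28 knockdown, with 24.2, 24.7 and 23.6 scaled FPKM, against 13.4, 15.7 and 19.9 in controls (0.56 ± 0.15, adjusted p = 0.00844; 0.0779 without the first control). It was the only 1 of the 9 tested replacement genes called (11.1%), where 10.3% of all tested genes were called higher. All 9 had a positive log2 fold change, with a median of 0.25, against -0.02 over all genes. For 7 of the 9 all TRIM28 knockdown libraries lay above all controls, against 21.2% of all tested genes. H2AZ1 had 473, 440 and 411 scaled FPKM, against 339, 340 and 384 (0.32 ± 0.13, adjusted p = 0.0727), and H3-3A had 26, 21.9 and 22.8, against 18.6, 16.8 and 20.9 (0.33 ± 0.13, adjusted p = 0.0653). H2AX had 32.2, 33.0 and 32.9, against 25.3, 24.9 and 29.1 (0.31 ± 0.13, adjusted p = 0.0867). These 3 genes sat above every control without passing the test.

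Further replacement genes also did not pass for TRIM28 knockdown. H3-3B had 99.6, 94.1 and 94.1 scaled FPKM, against 80.8, 81.6 and 86.3 in controls (0.21 ± 0.12), and H2AZ2 had 32.2, 30.2 and 30.6, against 25.1, 26.4 and 29.4 (0.20 ± 0.12). MACROH2A1 had 20.9, 19.7 and 19.8, against 16.8, 16.6 and 18.1 (0.23 ± 0.13). H1-10 had 50.1, 56.7 and 61.1, against 43.7, 40.4 and 57.2 (0.25 ± 0.14) with overlapping groups. With the length trend removed, H2AZ2, H3-3B and MACROH2A1 joined H2AJ in passing the test, where 11.5% of all genes were called higher. The count of replacement genes called higher was 0 without the first control, 5 without the third, and 4 without the first or the third PARP1 knockdown library, which enter through the shared estimate of the spread.

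The knockdowns were also compared directly. Replication-dependent genes were lower in TRIM28 knockdown than in PARP1 knockdown libraries: 26 of 47 were lower and 0 higher, where 11.9% of all tested genes were called lower and 13.2% higher. The median log2 fold change of TRIM28 knockdown minus PARP1 knockdown was -0.75, against 0.04 over all genes. For 15 of the 47, all TRIM28 knockdown libraries lay below all PARP1 knockdown libraries, against 18.7% of all tested genes, while 20.7% of all lay the other way. H2A genes were lower in 7 of 13 cases, H2B in 4 of 13, H3 in 4 of 7, H4 in 8 of 10 and H1 in 3 of 4.

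H2AC7 had 2.44, 6.09 and 4.14 scaled FPKM in TRIM28 knockdown libraries, against 8.70, 9.45 and 13.4 in PARP1 knockdown libraries (log2 fold change -1.32 ± 0.31, adjusted p = 0.00405). H4C4 had 10.7, 16 and 9.87, against 16.4, 30.2 and 29.5 (-1.06 ± 0.25, adjusted p = 0.00444). Their groups were separate, though for H4C4 only just. H3C13 had 2.26, 3.06 and 2.83, against 3.81, 9.20 and 10.1 (-1.48 ± 0.37, adjusted p = 0.00563), and H2AC8 had 13.6, 14.8 and 14.3, against 18.2, 34.0 and 24.3 (-0.84 ± 0.21, adjusted p = 0.00633). H3C13 shares 70.3% of its windows with another gene. None of these 4 genes was called with length and GC trends removed, at -0.66 for H2AC7, -0.59 for H4C4, -0.63 for H3C13 and -0.42 for H2AC8, and H2AC8 lost its call without the second PARP1 knockdown library (adjusted p = 0.0848).

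Among replacement genes H2AJ (-0.61 ± 0.15) and H2AX (-0.57 ± 0.13) were lower in TRIM28 knockdown than in PARP1 knockdown libraries and the other 7 did not pass. H2AJ kept its call with both trends removed (-0.76), and H2AX was 0.19 and not called. The count of 26 rested on the libraries used: it was 10 without the first and 7 without the third TRIM28 knockdown library, 5 without the second and 8 without the third PARP1 knockdown library, and 39 without the first PARP1 knockdown library. With the length trend removed 7 replication-dependent genes were lower (median -0.52), where 12.1% of all genes were called lower, and with length and GC trends removed 8 were lower (median -0.51), where 6.84% were called lower and 6.86% higher.

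Many histone genes lie head to head, most often H2A with H2B, and 11 pairs of tested histone genes, with H2BC17 in 2 of them, had start sites within 1000 bases of each other on opposite strands. In PARP1 knockdown both genes rose in 7 pairs and a single gene in the other 4, where 76.6% of the 47 replication-dependent genes and 27.1% of all genes rose. With so many replication-dependent genes called, most pairs can have both called without any link between them. Whether paired genes moved together was not tested. H2AC7 and H2BC7 start 223 bases apart, and H2BC7 had 14.8, 18.8 and 19.0 scaled FPKM in PARP1 knockdown libraries, against 8.34, 7.47 and 7.60 in controls (log2 fold change 1.16 ± 0.25). H2BC21 and H2AC20 had log2 fold changes of 1.07 and 1.08. The pair furthest apart was H2AC15 at -0.51 and H2BC15 at 1.34, whose start sites are 170 bases apart. H2AC15 had 0.935, 1.36 and 0.997 scaled FPKM in PARP1 knockdown libraries, against 2.04, 1.46 and 1.21 in controls, without passing the test, and all of its windows are shared with another gene.

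Promoter sequences from RefSeq (GRCh38.p14, from 250 bases before to 50 after a start) matched 72 of the 79 genes. Read on both strands, CCAAT was in 86.2% of 65 replication-dependent promoters, against 34.6% of all 35116 promoters. The TATAAA box was in 67.7%, against 11.5%, and the octamer ATTTGCAT in 41.5%, against 1.77%. The octamer was in 73.3% of H2A and 78.9% of H2B promoters, in 7.69% of H3 promoters and in 0 of 6 H1 and 0 of 12 H4 promoters. CCAAT was in every H1, H2A, H2B and H3 promoter and in 25% of H4 promoters. Overlaps between motifs were not removed. Windows of head-to-head genes can overlap, so an H2A and an H2B promoter can be counted for the same motif copy. The window of H2BC7 is printed because it holds the start sites of both H2BC7 and H2AC7; capitals mark CCAAT (also read as ATTGG on the other strand) and the octamer.
H2BC7, chr6:26199266-26199565, plus strand: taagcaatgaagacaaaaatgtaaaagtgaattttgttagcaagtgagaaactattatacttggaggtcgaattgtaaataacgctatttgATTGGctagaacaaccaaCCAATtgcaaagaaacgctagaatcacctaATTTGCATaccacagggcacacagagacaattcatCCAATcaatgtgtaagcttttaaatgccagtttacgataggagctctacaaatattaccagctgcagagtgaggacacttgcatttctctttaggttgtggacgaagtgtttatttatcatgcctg

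Genes that transcribe, process and degrade histone messages changed in both directions. Of 20 tested, 4 rose and 9 fell in PARP1 knockdown libraries, where 27.1% of all genes rose and 32.2% fell, and 3 rose and 5 fell in TRIM28 knockdown libraries, where 10.3% and 17.5% did. Their median length was 6474 bases, and their median log2 fold change with PARP1 knockdown was -0.61, or -0.16 with length and GC trends removed. With both trends removed 4 rose and 7 fell, where 24% of all genes were called higher and 22.7% lower. LSM10, a subunit of the U7 particle that cleaves histone messages, averaged 112 ± 26 scaled FPKM in PARP1 knockdown libraries and 47.3 ± 7.91 in controls (log2 fold change 1.24 ± 0.16), and it averaged 73.0 ± 3.65 in TRIM28 knockdown libraries (0.62 ± 0.16). HINFP, the transcription factor of H4 genes, rose by 0.56 ± 0.15 with PARP1 knockdown and 0.45 ± 0.15 with TRIM28 knockdown, and LSM1, which acts in decay of histone messages, by 0.62 ± 0.15 and 0.41 ± 0.15. Among those that fell, CPSF3, the endonuclease, did so by 1.58 on the log2 scale with PARP1 knockdown and 0.93 with TRIM28 knockdown, the exosome nuclease EXOSC10 by 1.57 and 0.69, and the cap-binding gene NCBP1 by 1.24 and 0.96. With length and GC trends removed LSM10 was not called in PARP1 knockdown (0.24) or TRIM28 knockdown (0.16), nor LSM1 in TRIM28 knockdown (0.24). LSM1 in PARP1 knockdown was called with both trends removed (0.38) and not with length alone removed (0.14). HINFP was called with both trends removed, at 1.15 in PARP1 knockdown and 0.74 in TRIM28 knockdown. With TMM factors alone the TRIM28 knockdown calls of HINFP and LSM1 were each lost on leaving out any of 4 or 5 single libraries. Among these were the first and second controls.

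Of 25 tested chaperone and deposition genes, 4 rose and 15 fell in PARP1 knockdown libraries, and 1 rose and 8 fell in TRIM28 knockdown libraries, against the same shares of all genes. Their median length was 5200 bases, and with length and GC trends removed 3 rose and 12 fell with PARP1 knockdown and 0 rose and 6 fell with TRIM28 knockdown. Over all genes 24% were then called higher and 22.7% lower with PARP1 knockdown, and 10.8% and 10.6% with TRIM28 knockdown. VPS72, which helps to deposit H2A.Z, averaged 109 ± 13.2 scaled FPKM in PARP1 knockdown, 93.0 ± 3.83 in TRIM28 knockdown and 64.1 ± 6.91 in control libraries (0.77 ± 0.13 for PARP1 knockdown and 0.54 ± 0.13 for TRIM28 knockdown). TONSL and IPO4, which handle newly made H3 and H4, rose with PARP1 knockdown by 0.65 ± 0.16 and 0.64 ± 0.16. UBN1 of the H3.3 chaperone HIRA fell by 1.88 with PARP1 knockdown and 1.26 with TRIM28 knockdown, the H2A.Z exchange enzyme EP400 by 1.44 and 1.04, and NASP, a chaperone of H3 and H1, by 1.45 with PARP1 knockdown. SUPT16H of the FACT complex fell by 1.01 with TRIM28 knockdown. IPO4 in PARP1 knockdown (0.29) and VPS72 in TRIM28 knockdown (0.25) were not called with length and GC trends removed. TONSL in PARP1 knockdown was 0.35 and still called. With length alone removed IPO4 (0.80) and TONSL (1.03) were called higher in PARP1 knockdown, and VPS72 in TRIM28 knockdown (0.31) was not called.

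Genes of S phase, when replication-dependent histones are made, went both ways with TMM factors alone. Of 20 tested, 7 rose and 9 fell in PARP1 knockdown libraries, and 0 rose and 6 fell in TRIM28 knockdown libraries. Over all genes 27.1% rose and 32.2% fell with PARP1 knockdown, and 10.3% and 17.5% with TRIM28 knockdown. After both trends were removed 2 of the 20 rose and 10 fell with PARP1 knockdown, where 24% of all genes were called higher and 22.7% lower. With TRIM28 knockdown 0 of the 20 then rose and 4 fell, where 10.8% of all genes were called higher and 10.6% lower. TK1, thymidine kinase, averaged 90.2 ± 16.1 scaled FPKM in PARP1 knockdown libraries and 52.4 ± 4.56 in controls (0.78 ± 0.14), E2F1 rose by 0.72 ± 0.17 and the replication factor GINS2 by 0.51 ± 0.14. TK1 was called lower (-0.26) and E2F1 was -0.14 after both trends were removed. The replication helicase genes MCM6 and MCM4 fell by 2.07 and 1.05 with PARP1 knockdown and the licensing factor CDC6 by 1.25. In TRIM28 knockdown libraries MCM6 fell by 1.20 and CDC6 by 0.66, and MCM4 was also called lower (-0.51). After the same removal CDC6 (-0.38) and MCM4 (-0.15) were not called in TRIM28 knockdown, and MCM4 in PARP1 knockdown was -0.34. The TRIM28 knockdown call of CDC6 was also lost without the third TRIM28 knockdown library (adjusted p = 0.0512). The share of cells in S phase was not measured in these libraries.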

How the data were processed

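Poly(A)-selected RNA of 786-O cells was sequenced with a directional kit, per the labels' protocols. Per the submitters' processing notes, featureCounts 2.0.1 and STAR 2.7.9a were used on GRCh38, besides Trim Galore 0.6.6 and FastQC 0.11.9, with R 4.0.3 and DESeq2 1.30.0. No source used here gives the annotation release or whether featureCounts used strand. Per the file headers, deposited values were raw counts per gene, whole and not normalized, and FPKM; all 556254 FPKM equalled the deposited count divided by gene length and library total within 0.0051.

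Changes were tested with edgeR 4.0.16 (R 4.3.3): quasi-likelihood test on counts, TMM factors, the package's filter on low counts (13562 genes left), all 9 libraries in 1 fit with 3 groups, 6 residual degrees of freedom, two-sided, Benjamini-Hochberg adjusted over all genes at 0.05. The biological coefficient of variation was 0.149. "Rose" and "fell" mean an adjusted p below 0.05. Length and GC trends were removed from each library with lowess offsets (span 0.3), with GC from GENCODE 29, which has 54 of the 56 tested histone genes. Genes without a GC value, among them H3C2 and H3C3, stayed in with the length trend alone removed. Alternatives were library totals, DESeq2 size factors, DESeq2 1.42.0, limma 3.58.1 on log2(FPKM + 1), no filter, only the groups compared, a fit with the replicate number as a block, and the omission of each library in turn. Scripts were tested on simulated data. The histone genes, the other gene lists and the tests were chosen with earlier results of these data known. Named genes were all replacement genes with reads, the 6 replication-dependent genes with the highest control level, the called replication-dependent genes with the smallest adjusted p (up to 8 per comparison with control and 4 for the direct comparison), and up to 3 per direction and comparison with control of each other list. Counts over genes without overlap or shared windows, and over replacement genes without H2AX, were chosen after seeing the data. H2BC7, H2AC15, H2AC20 and H4C14 were named after their values were seen, as were the genes listed because they did not pass. Values of some single genes that this rule would name are not reported here.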

Additional observations from a re-analysis of the deposited data

How the results depend on the processing

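In the order replication-dependent then replacement genes, counts and medians of log2 fold changes moved as follows. TRIM28 knockdown against control: higher calls were 6 and 5 with DESeq2, 6 and 2 with DESeq2 size factors, 7 and 4 with only the groups compared, 1 and 4 with length alone removed, and 5 replacement genes with both trends removed, while replication-dependent higher calls were 0 with library totals and 1 with limma on log2(FPKM + 1). Lower replication-dependent calls were 1 with the length trend removed, 2 with length and GC trends removed and 1 with limma, and the replication-dependent median was -0.116 and -0.222 with those 2 trend removals. The replacement median was 0.095 with library totals and 0.100 with limma. PARP1 knockdown against control: replication-dependent higher calls were 18 with length alone removed and 14 with both trends removed, which also gave 2 lower; the median was 0.618 with library totals, 0.372 and 0.193 with the trend removals and 0.544 with limma. Replacement higher calls were 2 with library totals and 3 with limma, lower calls were 1 with each of these, 1 with length alone removed and 3 with both trends removed; the median was 0.073, 0.073 and 0.602 with library totals, limma and both trends removed. TRIM28 against PARP1 knockdown: replication-dependent lower calls were 8, 7, 8 and 11 with library totals, length removed, length and GC removed, and limma; replacement genes had 1 and 2 higher calls with the trend removals, 1 lower with the length trend removed and 1 without H2AX, and a median of 0.041, -0.266 and 0.039 with library totals, both trends removed and limma.

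Among the values printed for single genes, those that changed sign were, for TRIM28 knockdown with length and GC trends removed, H1-10 (-0.173) and H2AX (-0.134). For PARP1 knockdown they were, with length and GC trends removed, H1-10 (-0.615), H2AX (-0.32), H1-2 (-0.044), H2BC12 (-0.35), H1-5 (-0.39), TK1 (-0.26) and E2F1 (-0.14), and, with library totals and limma, H3-3B (-0.034 and -0.037) and MACROH2A1 (-0.18 and -0.19). For TRIM28 against PARP1 knockdown H2AX was 0.188 with length and GC trends removed. The causes were not tested. Leaving out 1 library gave, for TRIM28 knockdown, 0 to 8 higher and 0 to 1 lower replication-dependent genes (median 0.107 to 0.346) and 0 to 5 higher replacement genes (median 0.228 to 0.405); for PARP1 knockdown, 28 to 43 (0.833 to 1.17) and 4 to 7 (0.35 to 0.529); and for TRIM28 against PARP1 knockdown, 5 to 39 lower (-0.96 to -0.579) and 2 to 4 lower (-0.178 to -0.1). Same-numbered libraries correlated by -0.0814 to 0.141 in their deviations from group means, so the numbers were not taken to pair the libraries. With the replicate block 3 replication-dependent genes were higher in TRIM28 knockdown, 33 were higher in PARP1 knockdown and 23 were lower in TRIM28 than in PARP1 knockdown, and all 72 results on single genes kept their direction and their side of the threshold. Few counts limit the low replication-dependent genes, of which the least covered had 2 counts in a library.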
